A study of Mus musculus with 2 samples.

Results

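Receptor and recognition genes by which macrophages take up modified lipoproteins, haemoglobin, hyaluronan, folate, microbes and dying cells were followed in single-cell RNA of mouse pancreatic tumours. They were Cd163, Mrc1, Lyve1, Folr2, Stab1, Timd4, Marco, Msr1 and Fcna. They were chosen by symbol, and all 9 of 9 were found among the 32285 genes of the deposited matrices. The data came from 2 orthotopic allograft tumours grown in mouse pancreas, 1 from KPC cells carrying the control vector shV and 1 from KPC cells carrying a hairpin against Zeb1 (shZEB1), each dissociated and sequenced as 1 droplet library. KPC cells are a mouse pancreatic cancer line, and both groups were injected with such cells, so the site and the tumour cells are shared and the hairpin is the labelled difference. The study describes gemcitabine treatment of the mice, which the labels do not mention, and its methods name several strains of young mice without saying which carried these tumours. The study examined animals of both sexes, and the sex of the 2 hosts here is not given in the sources used here. With 1 tumour per group, tumour, dissociation, library and hairpin cannot be told apart, so every comparison below is between 2 libraries and carries no test between conditions.

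Scavenger receptors are a functional rather than a structural family: unrelated membrane proteins that bind polyanionic or otherwise altered ligands and deliver them for degradation. In many tissues, macrophages that settled early in life or lie beside blood vessels carry Lyve1, Folr2, Mrc1, Cd163 and Timd4, whereas macrophages of body cavities and of the marginal zone of the spleen carry Marco, and Msr1 is found on macrophages more widely. Lyve1 and Stab1 are also genes of lymphatic and sinusoidal endothelium, and Timd4 is made by some dendritic cells, so the class of cell in which a transcript was counted matters for each of them.

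Counts were unique molecular identifiers (UMIs, 1 per captured RNA molecule). After filtering, 11398 cells (median 3720 UMIs) remained in the KPC-shV-labelled library and 12104 (median 4252 UMIs) in the KPC-shZEB1-labelled library. The libraries shared 46 cell barcodes, 36 of them among the cells kept. Levels are given as UMIs per 1000000 UMIs of the cells summed (CPM) with exact 95% Poisson intervals, and shares of cells with exact binomial (Clopper-Pearson) intervals. These intervals cover counting error only and hold nothing of the variation between mice. Zeb1 itself was not lower in tumour-like cells of the KPC-shZEB1-labelled library (187 CPM) than in those of the other (166 CPM; ratio 1.13, 1.09 to 1.17), so libraries are named by their labels throughout and no direction below is read as an effect of the hairpin. Monocyte-macrophage-like cells, chosen with 8 marker genes that include no member, numbered 1614 and 2519, with all 8 markers detected in both libraries and together at 7074 and 9208 CPM. The same markers summed to 307 and 852 CPM in B-like cells and to 482 and 1088 CPM in granulocyte-like cells, and levels of the members in these classes serve as the background against which low values are read.

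The genes lie on 7 chromosomes of the mouse build GRCm38: Cd163 (ENSMUSG00000008845) at chr6:124304656-124330527 on the plus strand, Mrc1 (ENSMUSG00000026712) at chr2:14229392-14332057 on the plus strand, Lyve1 (ENSMUSG00000030787) at chr7:110850607-110863239 on the minus strand, Folr2 (ENSMUSG00000032725) at chr7:101839988-101857194 on the minus strand and Stab1 (ENSMUSG00000042286) at chr14:31139013-31168641 on the minus strand. Timd4 (ENSMUSG00000055546) lies at chr11:46810800-46844332 on the plus strand, Marco (ENSMUSG00000026390) at chr1:120474538-120505024 on the minus strand, Msr1 (ENSMUSG00000025044) at chr8:39581685-39642673 on the minus strand and Fcna (ENSMUSG00000026938) at chr2:25624666-25628030 on the minus strand. No members neighbour each other: both the chromosome 7 pair and the chromosome 2 pair lie megabases apart. The stretch upstream of the start is shown for Fcna and Cd163, which were counted mostly in 1 macrophage state, and for Mrc1 and Stab1, which were spread over several, so that sequence can be set beside pattern. Bases are from RefSeq, build GRCm38.p6, 5′ to 3′ on the gene's strand. Capitals mark the letters GAGGAA (or TTCCTC on the other strand), the core read by the macrophage factor PU.1, and TGCTGA (or TCAGCA), the half-site read by MAF factors.
Fcna, chr2:25628031-25628224, minus strand: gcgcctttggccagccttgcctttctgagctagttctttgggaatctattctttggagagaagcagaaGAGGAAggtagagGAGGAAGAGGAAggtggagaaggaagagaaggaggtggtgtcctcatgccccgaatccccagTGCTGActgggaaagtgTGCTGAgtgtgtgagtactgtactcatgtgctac
Mrc1, chr2:14229164-14229391, plus strand: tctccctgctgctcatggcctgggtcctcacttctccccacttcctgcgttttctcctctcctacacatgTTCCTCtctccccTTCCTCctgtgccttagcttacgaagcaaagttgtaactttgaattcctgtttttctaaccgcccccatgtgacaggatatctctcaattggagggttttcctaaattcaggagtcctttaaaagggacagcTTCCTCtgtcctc
Stab1, chr14:31168642-31168891, minus strand: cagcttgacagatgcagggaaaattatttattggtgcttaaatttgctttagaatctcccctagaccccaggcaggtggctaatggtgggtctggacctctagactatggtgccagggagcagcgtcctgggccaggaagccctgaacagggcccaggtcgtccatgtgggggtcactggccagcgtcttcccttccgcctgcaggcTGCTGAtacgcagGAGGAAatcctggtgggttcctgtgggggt
Cd163, chr6:124304401-124304650, plus strand: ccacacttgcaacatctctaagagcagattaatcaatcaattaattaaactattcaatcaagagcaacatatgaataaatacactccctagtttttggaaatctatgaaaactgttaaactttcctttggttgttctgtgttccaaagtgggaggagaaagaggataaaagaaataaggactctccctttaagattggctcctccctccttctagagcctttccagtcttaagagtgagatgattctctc
Fcna held 3 PU.1 cores and 2 MAF half-sites, Mrc1 held 3 and 0, Stab1 held 1 and 1, and Cd163 held neither in its 250 bases. Of the members, 7 had an entry in the promoter set, and in 250-base windows 4 of them held a PU.1 core and 4 a MAF half-site, where 23.3% and 16.1% of 32851 promoters did. A match is a description of letters in the window and no evidence of binding.

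To locate the transcripts, UMIs of each gene were traced to the class of cell they came from. Monocyte-macrophage-like cells held between 64.9% and 90.4% of the UMIs of 8 members in either library, and the exception was Timd4, of which they held 50.6% in the KPC-shV-labelled library and 16.0% in the KPC-shZEB1-labelled library. Dendritic-like cells held most of the rest of Timd4, 39.8% and 76.4%. The highest level of any class or state was in a macrophage or dendritic state in both libraries for 7 of 9 members. Lyve1 was highest in lymphatic endothelial-like cells in both libraries, and Stab1 was highest there in the KPC-shV-labelled library but in a macrophage state in the other.

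Macrophage-like cells were then split into 13 states by variable genes from which the members and the listed genes had been left out, and the states were named by leading genes and, where markers allowed, by a type. A state led by Bmp2 and Cbr2 (189 and 320 cells) was resident macrophage-like by markers that include no member, namely Pf4, F13a1, Cbr2, Gas6, Ccl8, Selenop, Maf and Igf1. Its 10 leading genes also held Lyve1, Marco, Fcna and Cd163, and because genes that vary with them still set the grouping, levels by state are given as a description. The pancreatic islet hormone genes Iapp and Ins2 were also among those 10. A second resident macrophage-like state was led by Fcrls and Ccl8 (265 and 390 cells).

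**Figure D1:**
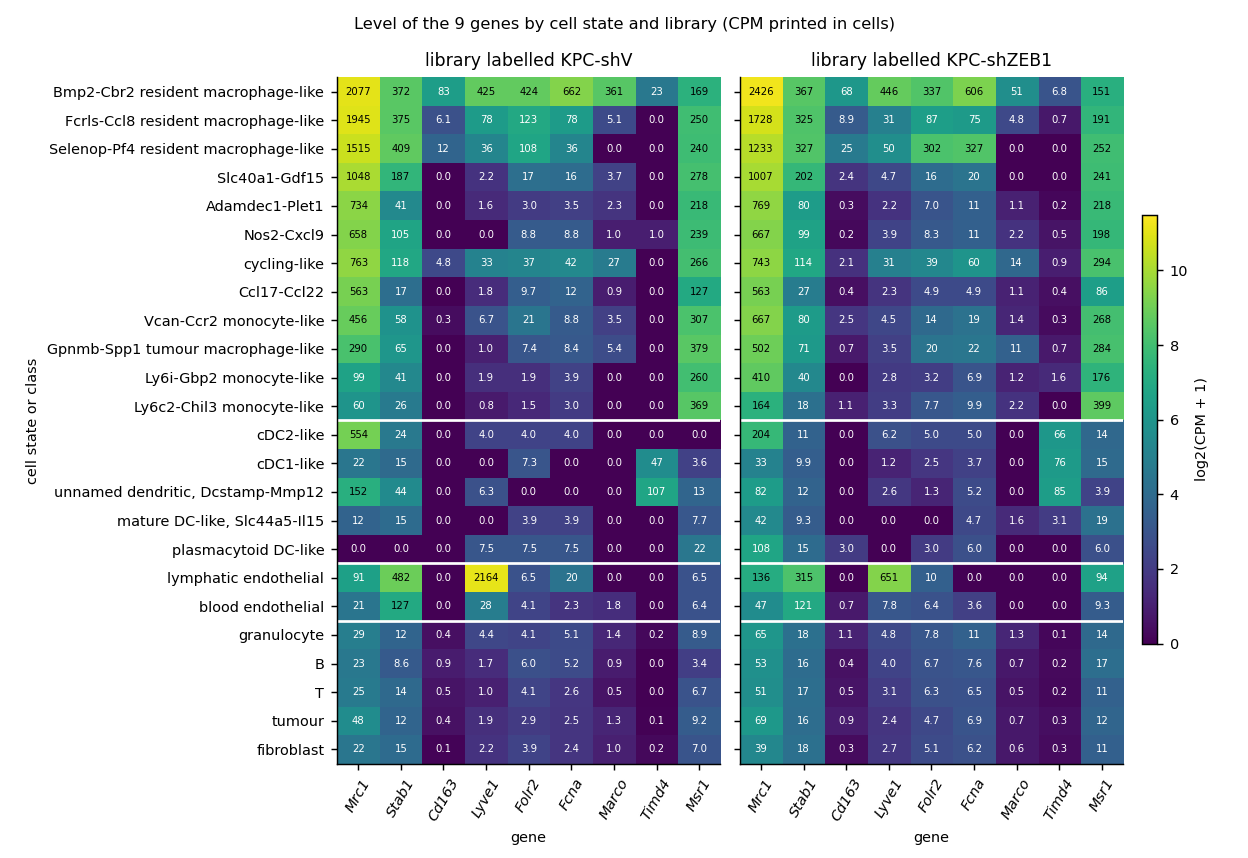
Levels of the 9 genes (columns; CPM printed in each field and coloured by log2 of CPM + 1) in macrophage states, dendritic states and other cell classes (rows) of the 2 libraries (left and right). Lyve1, Folr2, Fcna and Cd163 are highest among macrophages in the Bmp2-Cbr2 state, Mrc1 and Stab1 extend to the Fcrls-Ccl8 state, Msr1 is spread over most macrophage states and Timd4 is seen in dendritic states.

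Mrc1, the mannose receptor CD206, and Stab1, the receptor stabilin-1 that clears modified lipoproteins and SPARC, were high in both resident-like states and graded across the others. Mrc1 reached 2077 CPM (2010 to 2146) in the Bmp2-Cbr2 state and 1945 CPM (1893 to 1998) in the Fcrls-Ccl8 state of the KPC-shV-labelled library. The corresponding levels in the KPC-shZEB1-labelled library were 2426 CPM (2373 to 2481) and 1728 CPM (1689 to 1767). At least 99.4% of the cells of both states held a Mrc1 UMI in either library, so Mrc1 there marked the whole state rather than a subset. Its level was 60.1 CPM (47.6 to 74.9) and 164 CPM (138 to 192) in Ly6c2-Chil3 monocyte-like cells, which carry genes of newly arrived blood monocytes. Vcan-Ccr2 monocyte-like cells lay between, at 456 and 667 CPM, as did cells led by Adamdec1 and Plet1 at 734 and 769 CPM. Background for Mrc1 was 23.3 and 53.1 CPM in B-like cells and 29.1 and 65.0 CPM in granulocyte-like cells, and the Ly6c2-Chil3 level lay nearest to it of the macrophage states.

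Stab1 was likewise high in both resident-like states, although its order over the other states was not that of Mrc1. It stood at 372 CPM (344 to 402) and 367 CPM (346 to 388) in the Bmp2-Cbr2 state and at 375 CPM (353 to 399) and 325 CPM (308 to 342) in the Fcrls-Ccl8 state, and the 2 states differed beyond their intervals only in the KPC-shZEB1-labelled library. The small Selenop-Pf4 resident macrophage-like state (27 and 12 cells, of low depth) was at 409 CPM (283 to 571) and 327 CPM (174 to 559), from 34 and 13 UMIs. Cells led by Slc40a1, the iron exporter ferroportin, and Gdf15 were at 187 and 202 CPM. Ly6c2-Chil3 monocyte-like cells held 25.9 and 17.7 CPM, and Ccl17-Ccl22 cells 16.8 and 27.2 CPM, against a background of 8.62 and 15.9 CPM in B-like cells. Adamdec1-Plet1 cells held less Stab1 than Vcan-Ccr2 cells in the KPC-shV-labelled library, 41.2 against 57.6 CPM, where for Mrc1 they held more. Over 40 pairs of state or class and library, the genes whose levels were most like those of Stab1 were Maf, a transcription factor of resident macrophages (correlation of log levels 0.93), Wdfy3 and Plod1, and those most like Mrc1 were the endocytic adaptor Dab2 (0.94), Snx8 and Stab1. These 40 points share libraries and depth, and the correlations are a description over 12554 genes.

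Lyve1, a hyaluronan receptor, Folr2, a folate receptor, Fcna, the secreted lectin ficolin A, and Cd163, the haemoglobin-haptoglobin receptor, were concentrated in the Bmp2-Cbr2 state. Lyve1 was at 425 CPM (395 to 457) and 446 CPM (423 to 469) there. The Fcrls-Ccl8 state held 78.5 CPM (68.4 to 89.7) and 31.2 CPM (26.2 to 36.9), and Adamdec1-Plet1 cells 1.62 and 2.19 CPM, no more than the 1.72 and 4.03 CPM of B-like cells. The intervals of the 2 resident-like states lay far apart in both libraries. The share of cells with a Lyve1 UMI was 69.3% (62.2 to 75.8) and 69.7% (64.3 to 74.7) in the Bmp2-Cbr2 state against 20.8% and 11.3% in the Fcrls-Ccl8 state. When every cell was thinned to 1000 UMIs the shares were 24.9% and 27.5% against 4.91% and 1.54%, in the same order.

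Folr2 was at 424 CPM (394 to 455) and 337 CPM (317 to 357) in the Bmp2-Cbr2 state and at 123 CPM (110 to 136) and 86.8 CPM (78.3 to 96.0) in the Fcrls-Ccl8 state. Fcna was at 662 CPM (624 to 701) and 606 CPM (579 to 633), then 77.8 and 75.4 CPM. Folr2 was thus shared between the 2 resident-like states to a greater degree than Fcna or Lyve1, with 50.2% and 38.7% of Fcrls-Ccl8 cells holding a UMI. Monocyte-like states differed: in Ly6c2-Chil3 cells Folr2 was at 1.52 and 7.73 CPM and Fcna at 3.04 and 9.94 CPM, no higher than in granulocyte-like cells of the KPC-shZEB1-labelled library (7.76 CPM for Folr2 and 10.7 CPM for Fcna). Vcan-Ccr2 monocyte-like cells held more, with Folr2 at 21.0 CPM (16.5 to 26.5) and 14.2 CPM (10.6 to 18.7) and Fcna at 8.77 CPM (5.91 to 12.5) and 19.2 CPM (14.9 to 24.3). Folr2 in the small Selenop-Pf4 state stood at 108 CPM (49.5 to 205) and 302 CPM (156 to 527), from 9 and 12 UMIs.

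Cd163 was sparse and narrow. Its level was 82.7 CPM (69.8 to 97.3) and 67.7 CPM (59.0 to 77.3) in the Bmp2-Cbr2 state, and 6.15 CPM (3.58 to 9.85) and 8.89 CPM (6.32 to 12.2) in the Fcrls-Ccl8 state. No Cd163 UMI was found in Gpnmb-Spp1 tumour macrophage-like cells of the KPC-shV-labelled library, which allows up to 1.48 CPM, and 2 were found in the other library. Even in the Bmp2-Cbr2 state only 14.3% (9.63 to 20.1) and 17.2% (13.2 to 21.8) of cells held a Cd163 UMI, and the 5 highest cells held 44.0% and 31.6% of all its macrophage UMIs. Those 5 cells were taken over the whole class, and the highest of the KPC-shZEB1-labelled library, with 32 UMIs, lay outside the state. Within the state the UMIs came from 27 of 189 and 55 of 320 cells, and the highest cell held 18 of 145 and 23 of 218. The gene was therefore not a label of the state as a whole.

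Folr2 and Fcna were found in Lyve1 cells more often than in the class as a whole. In the Bmp2-Cbr2 state by itself, Folr2 was in 78.8% and 76.6% of all cells and Fcna in 76.2% and 77.2%. Pairing of the genes within that state was not tested. Of cells with a Lyve1 UMI, 79.1% and 66.0% also held Folr2, against 25.7% and 25.4% of all macrophage-like cells. Fcna was found in 68.3% (61.8 to 74.2) and 67.0% (62.1 to 71.7) of the Lyve1 cells against 21.3% and 26.3%. After thinning, Folr2 was in 30.3% and 18.6% of Lyve1 cells against 6.88% and 5.00%, and Fcna in 42.4% and 39.8% against 6.63% and 6.79%. Msr1 went the other way: 69.6% and 68.1% of Lyve1 cells held it, against 78.2% and 76.8% of all macrophage-like cells. Counting Cd163, Lyve1, Folr2, Fcna and Mrc1 together, all 5 were detected in 8.47% and 10.9% of cells of the Bmp2-Cbr2 state and exactly 4 in 49.2% and 47.2%, whereas in the Fcrls-Ccl8 state those shares were 1.13% and 0.513% for 5 and 11.3% and 6.67% for 4.

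Msr1, the class A scavenger receptor that takes up modified low-density lipoprotein, had another order. In the KPC-shV-labelled library it was highest in the Gpnmb-Spp1 tumour macrophage-like state (379 CPM, 352 to 406) and in Ly6c2-Chil3 monocyte-like cells (369 CPM, 337 to 403), whose intervals overlapped. In the other library Ly6c2-Chil3 cells were highest (399 CPM, 359 to 442), followed by cycling-like cells (294 CPM, 278 to 311) and the Gpnmb-Spp1 state (284 CPM, 265 to 304), and the intervals of the last 2 overlapped. The Bmp2-Cbr2 state, where the resident genes peaked, held 169 CPM (150 to 189) and 151 CPM (138 to 166), and the lowest macrophage level was in cells led by the chemokines Ccl17 and Ccl22 at 127 CPM (107 to 150) and 86.2 CPM (75.3 to 98.1). Every macrophage state was above the 3.45 to 16.6 CPM of B-like and granulocyte-like cells. The genes most like it over the 40 points were Lyz2 (0.93), Trem2 and Slc7a8.

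Marco, a class A receptor for bacteria and particles, had the largest gap between the libraries of the 9 members, and its counts rested on few cells. In the Bmp2-Cbr2 state it stood at 361 CPM (333 to 390) in the KPC-shV-labelled library and at 50.9 CPM (43.4 to 59.3) in the KPC-shZEB1-labelled library, a ratio of 0.141 (0.118 to 0.168). The 3 highest cells of the former held 188, 124 and 72 UMIs, and its 5 highest cells held 63.4% of the 754 Marco UMIs of all macrophage-like cells. In the latter the highest cell held 32 UMIs and the 5 highest held 33.5% of 310. The number of cells with at least 3 Marco UMIs was nearly the same, 16 and 14 in the state and 23 and 22 in the class, out of different totals. Without the 5 highest cells of each library the ratio in the state was 0.249 (0.186 to 0.331), and in all macrophage-like cells it went from 0.249 (0.217 to 0.284) to 0.451 (0.375 to 0.542). These 5 cells were left out after their values were seen.

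**Figure D2:**
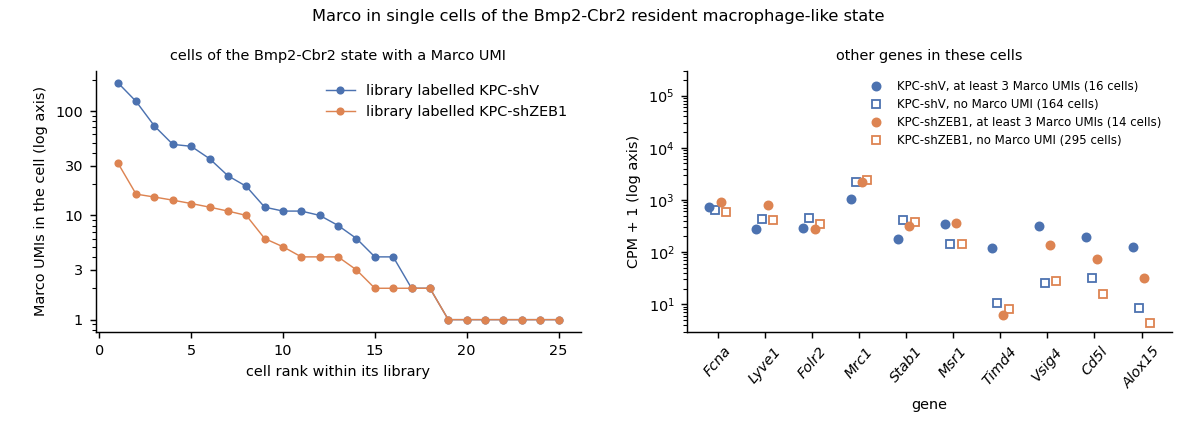
Left, Marco UMIs per cell (log axis) in the Bmp2-Cbr2 state, cells ranked from the highest in each library; right, levels (CPM + 1, log axis) of other genes in cells with at least 3 Marco UMIs and in cells with none. The 3 highest cells of the KPC-shV-labelled library hold 188, 124 and 72 UMIs, above the 32 of the highest cell in the other library, and Vsig4, Cd5l and Alox15 are higher in the cells with at least 3 Marco UMIs in both libraries.

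Cells with at least 3 Marco UMIs also differed from cells of the same state with none in other genes, a comparison made after the Marco values were seen. Their median depth was 14600 UMIs against 7876 in the KPC-shV-labelled library and 8869.5 against 9350 in the other, and the part of depth was not tested. The complement receptor gene Vsig4 stood at 308 against 25.0 CPM in the KPC-shV-labelled library and at 134 against 26.6 CPM in the other, with its UMIs in 3 of the 16 and 3 of the 14 Marco cells. Cd5l, a secreted scavenger protein of resident macrophages, stood at 191 against 31.3 CPM and at 72.1 against 14.5 CPM, in 7 and 4 of the Marco cells. The lipoxygenase gene Alox15 stood at 126 against 7.64 CPM and 30.9 against 3.46 CPM, in 6 and 2 of the Marco cells. Each of these summed levels was higher beside Marco in both libraries, on few cells. Other genes read in the same cells did not all go that way. Slc40a1 was lower beside Marco, at 0 against 9.73 CPM and at 5.15 against 12.8 CPM. Hmox1 went opposite ways in the libraries, at 608 against 557 CPM and at 360 against 401 CPM, as did Siglec1 and the sparse Spic. Clec4f had no UMI in any of these cells. Gata6, the factor of large peritoneal macrophages, was too sparse to compare. It had 5 UMIs in 3 of 16 Marco cells and 2 UMIs in 1 of 14. Cells with no Marco UMI held 2 Gata6 UMIs in 164 cells and 4 in 295. Icam2, Naip1, Selp and Garnl3, of the peritoneal macrophage list given below, were higher beside Marco in both libraries. Icam2 stood at 43.4 against 6.25 CPM and at 15.4 against 3.46 CPM, with 10 UMIs in 6 Marco cells and 3 UMIs in 1. Naip1 stood at 60.8 against 11.1 CPM and at 41.2 against 6.57 CPM. Selp stood at 21.7 against 13.2 CPM and at 87.5 against 8.99 CPM. Garnl3 rested on 3 UMIs in the Marco cells of each library. Among the members, Msr1 was higher in these cells (343 against 142 CPM, and 366 against 140 CPM) and Mrc1 was lower (1029 against 2202 CPM, and 2157 against 2438 CPM). Fcna (738 against 636 CPM, and 911 against 582 CPM) and Cd163 (143 against 77.8 CPM, and 72.1 against 66.1 CPM) were also higher. Stab1 (174 against 406 CPM, and 314 against 373 CPM) and Folr2 (291 against 442 CPM, and 273 against 341 CPM) were also lower. Lyve1 and Timd4 went opposite ways in the libraries. Lyve1 stood at 274 against 430 CPM in the KPC-shV-labelled library and at 783 against 415 CPM in the other, and Timd4 at 117 against 9.73 CPM and at 5.15 against 7.26 CPM, the last pair from 1 and 21 UMIs. The peritoneal macrophage list of 6 genes was Gata6, Alox15, Icam2, Garnl3, Naip1 and Selp. It was detected in full in the state and summed to 74.1 and 37.6 CPM, and to 17.0 and 12.5 CPM in the Fcrls-Ccl8 state. The part of this list in the Marco difference was not tested.

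Timd4, the phosphatidylserine receptor TIM-4 by which dying cells are tethered, was divided between a few resident-like macrophages and dendritic cells. In the Bmp2-Cbr2 state it stood at 23.4 CPM (16.8 to 31.7), from 41 UMIs in 16 of 189 cells, and at 6.83 CPM (4.28 to 10.3), from 22 UMIs in 11 of 320 cells. It was not detected in the Fcrls-Ccl8 state of the KPC-shV-labelled library, which allows up to 1.09 CPM, and 3 UMIs were found in that state of the other. Dendritic-like cells (107 and 331) held 22.5 CPM (15.5 to 31.6) and 41.9 CPM (36.3 to 48.1). By dendritic state, Timd4 stood at 47.2 CPM (25.1 to 80.6) and 75.6 CPM (57.8 to 97.1) in cDC1-like cells, the cross-presenting type. In cDC2-like cells no UMI was found among 20 cells of the KPC-shV-labelled library, which allows up to 11.97 CPM, whereas 67 cells of the other held 66.1 CPM (49.5 to 86.4), from 53 UMIs in 5 cells. A dendritic state led by Dcstamp and Mmp12, which matched no named type, held 17 UMIs in 1 of 11 cells and 65 UMIs in 9 of 51. Its level, 107 CPM (62.6 to 172) and 84.6 CPM (65.3 to 108), was the highest of any class or state in both libraries. Its intervals overlapped those of cDC1-like cells. Mature dendritic-like cells held 0 and 2.73 CPM, and plasmacytoid dendritic-like cells had no UMI in either library. B-like cells held 0 and 0.224 CPM, so the Timd4 of dendritic states was well above background but came from few cells.

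To see which of these genes are also endothelial, levels in vessel cells were set beside those of macrophages. Lymphatic endothelial-like cells were rare, 6 and 5, and held Lyve1 at 2164 CPM (1938 to 2410) and 651 CPM (499 to 834), and Stab1 at 482 CPM (379 to 606) and 315 CPM (212 to 449). Of the Lyve1 UMIs of these cells, 116 of 332 in the KPC-shV-labelled library and 31 of 62 in the other came from 1 cell. For Stab1 the highest cell held 21 of 74 and 16 of 30 UMIs. Blood endothelial-like cells (101 and 65) held Stab1 at 127 CPM (113 to 143) and 121 CPM (104 to 141), and Lyve1 at 27.9 CPM (21.3 to 35.8) and 7.84 CPM (3.91 to 14.0). Stab1 was therefore present in blood vessel cells at about the level of the macrophage-like class (136 and 135 CPM), and Lyve1 was below it there (47.1 and 48.0 CPM). The markers of lymphatic endothelium summed to 3.99 and 4.35 CPM in the Bmp2-Cbr2 macrophage state, against 12165 and 7115 CPM in the lymphatic cells, so that list was close to 0 where Lyve1 macrophages were counted. Monocyte-macrophage markers in turn summed to 606 and 4387 CPM in the lymphatic cells, close to background in the first library and not in the second, and their part in the Stab1 level of the second was not tested. Cd163, Marco and Timd4 had no UMI in lymphatic cells, which allows up to 19.6 and 31.5 CPM.

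**Figure D3:**
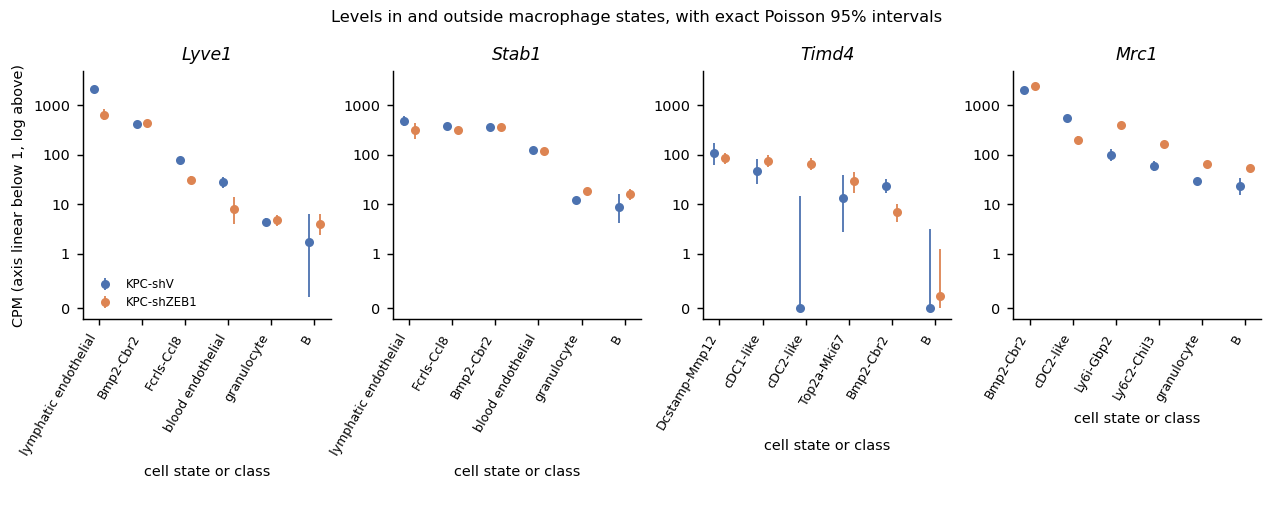
Levels of Lyve1, Stab1, Timd4 and Mrc1 (CPM, axis linear below 1 and logarithmic above) in chosen macrophage and dendritic states, endothelium, granulocyte-like and B-like cells; points are the 2 libraries and lines exact 95% Poisson intervals. Lyve1 reaches 2164 and 651 CPM in the 6 and 5 lymphatic cells. Timd4 reaches 107 and 84.6 CPM in the Dcstamp-Mmp12 dendritic state and 47.2 and 75.6 CPM in cDC1-like cells.

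The libraries were then compared over all macrophage-like cells, as the ratio of the level in the KPC-shZEB1-labelled library to that in the KPC-shV-labelled library. None of the 9 members was at least 1.5-fold higher, where 10.1% of 14808 genes with at least 30 UMIs in both libraries together were, and 2 of 9, Marco and Timd4, were at least 1.5-fold lower, where 2.3% of genes were. Marco had a ratio of 0.249 (0.217 to 0.284) from 754 and 310 UMIs, and Timd4 a ratio of 0.605 (0.385 to 0.951) from 42 and 42. Of these UMIs, 633 and 164 of Marco and 41 and 22 of Timd4 lay in the Bmp2-Cbr2 state, so both class ratios rest largely on that state. Elsewhere Marco stood at 5.06 and 4.79 CPM in the Fcrls-Ccl8 state. It stood at 26.9 and 13.7 CPM in cycling-like cells and at 5.44 and 10.9 CPM in Gpnmb-Spp1 cells, the last with overlapping intervals. The Timd4 value turned to 2.08 (1.59 to 2.76) when macrophages were picked as cells with UMIs of at least 3 of Csf1r, Adgre1, C1qa, C1qb and C1qc whatever their cluster, and was 0.944 (0.485 to 1.89) without the 5 highest cells of each library, so its direction rests on how cells were chosen and on few cells. Mrc1 (876 and 930 CPM; 1.06, 1.04 to 1.08), Stab1 (136 and 135 CPM; 0.988), Cd163 (7.46 and 8.33 CPM; 1.12) and Lyve1 (47.1 and 48.0 CPM; 1.02) were close to even. Fcna was at 68.6 and 77.3 CPM (1.13, 1.06 to 1.20), Folr2 at 58.0 and 50.1 CPM (0.865, 0.806 to 0.927) and Msr1 at 262 and 217 CPM (0.829, 0.802 to 0.857). The median log2 ratio of the members was -0.02, beside 0.04 over all genes. The 4 genes other than Mrc1 of the Bmp2-Cbr2 pattern thus stayed within 1.5-fold.

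**Figure D4:**
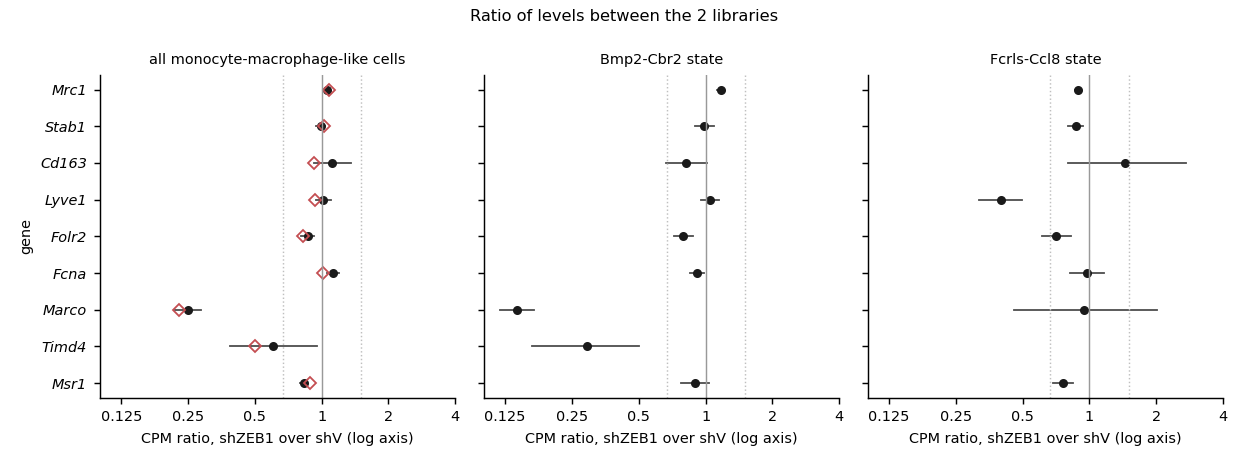
Ratio of the level in the KPC-shZEB1-labelled library to that in the KPC-shV-labelled library (log axis) with exact 95% intervals, in all macrophage-like cells and in both resident macrophage-like states. Red open diamonds give the ratio with the same state weights in both libraries, and dotted lines mark 1.5-fold. Marco lies at 0.249 in all macrophage-like cells and at 0.141 in the Bmp2-Cbr2 state, and Lyve1 at 1.02 in the former and 0.398 in the Fcrls-Ccl8 state.

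The make-up of the macrophage pool differed, with for example 55 and 330 Nos2-Cxcl9 cells. Ratios were therefore also taken over the 11 states of at least 20 cells in both libraries, with the same state weights in each library. The weight of a state was its UMI total over both libraries together. Marco was then at 0.228, Timd4 at 0.503, Folr2 at 0.827, Msr1 at 0.883, Cd163 at 0.926, Lyve1 at 0.934, Fcna at 1.02, Stab1 at 1.03 and Mrc1 at 1.08. Each member stayed on the same side of 1.5-fold, and the sign turned for Cd163, Lyve1 and Stab1, all of which were near even. The share of cells with a UMI was read after thinning too, since depth differed: Mrc1 was in 84.0% and 92.3% of macrophage-like cells as counted and in 47.8% and 51.1% after thinning, and Stab1 in 57.2% and 62.7% as counted and in 14.1% and 11.3% after thinning. The direction of Stab1 by share thus depended on depth.

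Within single states, larger gaps than in the class were found for several members. Mrc1 was higher in the KPC-shZEB1-labelled library in Ly6i-Gbp2 monocyte-like cells, at 98.8 against 410 CPM (ratio 4.15, 3.13 to 5.61), in Ly6c2-Chil3 monocyte-like cells, at 60.1 against 164 CPM (2.72, 2.06 to 3.62), in Gpnmb-Spp1 cells (1.73, 1.57 to 1.91) and in Vcan-Ccr2 cells (1.46). Background of Mrc1 also differed between the libraries, at 29.1 and 65.0 CPM in granulocyte-like cells, and its part in these ratios was not tested. Mrc1 was lower in cDC2-like cells, at 554 CPM (466 to 655) against 204 CPM (174 to 238), a ratio of 0.369 (0.292 to 0.466) over 20 and 67 cells. Lyve1 was lower in the Fcrls-Ccl8 state, at 78.5 against 31.2 CPM (ratio 0.398, 0.319 to 0.495), whereas in the Bmp2-Cbr2 state the 2 intervals overlapped. Stab1 was higher in Adamdec1-Plet1 cells, at 41.2 CPM (35.4 to 47.7) against 79.9 CPM (73.1 to 87.1). Folr2 and Fcna were higher in Gpnmb-Spp1 cells of the KPC-shZEB1-labelled library, Folr2 at 7.41 against 20.3 CPM (2.74, 1.53 to 5.20), opposite to its class ratio of 0.865, and Fcna at 8.40 against 21.7 CPM (2.58, 1.49 to 4.71). Fcna was also higher there in Adamdec1-Plet1 cells, at 3.47 against 10.6 CPM (3.06, 1.73 to 5.77), and in Vcan-Ccr2 cells (2.19, 1.41 to 3.48). Granulocyte-like cells held Fcna at 5.08 and 10.7 CPM, and the part of background in these ratios was not tested. These states were set by clustering the libraries together, so cells near a border between states can move such a ratio.

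Genes that work beside the members were read from 8 lists, each cut to the genes with at least 30 UMIs in both libraries together. None of 10 receptors and bridges for dying cells passed 1.5-fold in either direction, and these ran from 0.815 for Gas6, the bridging ligand of the TAM receptors, and 0.852 for Itgb5 to 1.10 for Havcr2 and 1.13 for the integrin gene Itgav. None of 11 genes of haem and iron handling did, although Hmox1, haem oxygenase, was at 206 and 152 CPM (0.737, 0.709 to 0.766) and Slc40a1 at a ratio of 0.733, with Blvrb (1.19) and Slc11a1 (1.09) at the other end. None of 8 folate genes did either, from Slc19a1 (0.757) and Ggh (0.846) to Slc46a1 (1.10) and Shmt2 (1.13), and none of 16 genes of macrophage growth and identity, from Il10 (0.814) and Nr4a1 (0.815) to Csf1r (1.18) and Il34 (1.36). Of 13 other scavenger receptors, Scara3 (1.65) and Ssc5d (1.72) were higher and Cd5l (0.397, 0.298 to 0.527) was lower, while Cd36 stood at 0.803. Of 10 hyaluronan genes, Cemip (2.69) and Has3 (2.08) were higher and Vcan (0.54) lower, the first 2 from 49 and 31 UMIs in all, and Hyal2 stood at 0.826. Of 9 macrophage lectins and markers, Cd209f (2.58), Cd209g (2.48) and Cd209d (1.55) were higher, and Cd209a (0.57) and Vsig4 (0.639, 0.506 to 0.806) were lower. Of 2 lectin pathway genes, Masp2 (3.63) was higher, from 35 UMIs, and Masp1 stood at 1.21. Cd5l and Vsig4, which were lower, are the same genes that stood high in the Marco cells of the Bmp2-Cbr2 state. There Vsig4 rested on few cells, with 71 UMIs in 3 Marco cells of the KPC-shV-labelled library and 26 in 3 of the other. In cells of that state with no Marco UMI, Vsig4 stood at 25.0 and 26.6 CPM and Cd5l at 31.3 and 14.5 CPM. The part of the Marco cells in the 2 ratios was not tested.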

How the data were processed

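Each tumour was dissociated and sequenced as 1 library. The authors deposited UMI counts per gene and barcode, made with Cell Ranger 7.0.1 on build mm10 per the labels; whether intronic reads were counted was not stated. A cell was kept if it had 500 genes or more, between 1000 and 60000 UMIs, and no more than 15% of UMIs from mitochondrial genes, the limits of the study's methods. Barcodes with a Scrublet score above 0.2 were removed as doublets, 315 (2.69%) and 343 (2.76%). Cells were clustered without alignment of libraries in scanpy 1.11.5 with leidenalg 0.10.2 (3000 variable genes, 30 components, 20 neighbours, resolution 1), and macrophage and dendritic cells again (2000 genes, 20 components). Counts were summed by class and library; 1 small state, counted within its class, is not reported here. Intervals were exact (scipy 1.17.1), and the ratio interval was the exact conditional one. With 1 library per group no p-value was computed. All members were named, with the 2 highest and 2 lowest ratios of each list, the 3 genes most correlated with each member and leading genes of states; other genes were chosen after their values were seen. Members and lists were chosen with earlier results of these data known. The ratio step was checked on simulated data. Alternatives changed cell filters, doublet removal, clustering, class definition, background, minimum and the highest cells.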

Additional observations from a re-analysis of the deposited data

Results flagged for a closer look

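Results were picked out here because the libraries differed in 1 state or class in the direction opposite to that in another, or because a member was seen in barcodes that no comparison used. Mrc1 was higher in the KPC-shZEB1-labelled library in Ly6i-Gbp2 monocyte-like cells, at a ratio of 4.15, and lower in cDC2-like cells, at a ratio of 0.369. Timd4 was higher in that library in dendritic-like cells, at a ratio of 1.86, and lower in Bmp2-Cbr2 resident macrophage-like cells, at a ratio of 0.292. With 1 library per group these differences between cell types were not tested, and the Timd4 values rest on 33 and 201 UMIs in dendritic-like cells and 41 and 22 in the macrophage state. In dendritic-like cells those UMIs came from 7 of 107 and 27 of 331 cells, and the highest cell held 17 and 33. The shares of cells, 6.54% and 8.16%, had overlapping intervals.

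Barcodes with more than 60000 UMIs, 289 in the KPC-shV-labelled library and 217 in the KPC-shZEB1-labelled library, were left out of every level above. Mrc1 stood at 51.2 CPM in those of the former and at 98.2 CPM in those of the latter. Msr1 stood at 8.91 and 15.1 CPM, Fcna at 3.38 and 7.06 CPM, Folr2 at 2.57 and 5.31 CPM and Lyve1 at 2.41 and 3.93 CPM. These genes were higher in the barcodes of the KPC-shZEB1-labelled library. Stab1 stood at 12.1 and 16.5 CPM, from 311 UMIs in each library, Cd163 at 0.272 and 0.531 CPM and Timd4 at 0.117 and 0.212 CPM, whereas Marco was lower in that library, at 0.934 and 0.69 CPM, with overlapping intervals. Background was also higher in the KPC-shZEB1-labelled library for Mrc1, Msr1, Fcna and Folr2. Mrc1 stood at 23.3 and 53.1 CPM in B-like cells. In granulocyte-like cells Msr1 stood at 8.89 and 14.3 CPM and Fcna at 5.08 and 10.7 CPM. Folr2 stood at 4.07 and 7.76 CPM there. Lyve1 stood at 4.38 CPM (3.56 to 5.33) and 4.77 CPM (3.68 to 6.10) in the same cells, with overlapping intervals. The part of background in the levels of these barcodes was not tested, and no test between conditions was possible.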

How the results depend on the processing

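No paired analysis was possible because each group was 1 library with no replicate number, and leaving out a replicate had no meaning. The count of members at least 1.5-fold lower in the KPC-shZEB1-labelled library went from 2 to 1 without the 5 highest cells of each member (Timd4 then 0.944) and to 1 when macrophages were chosen by 5 marker genes, where 1 member, Timd4, became higher at 2.08. The median log2 ratio of the members went from -0.02 to -0.103 with the B-like level subtracted, to -0.091 with the granulocyte-like level subtracted and to 0.064 under the marker-chosen class. The number of members with a larger share of cells in the KPC-shZEB1-labelled library went from 6 to 3 after thinning. The count of members highest in a macrophage or dendritic state ran from 7 to 9. Over 13 alternatives Marco ran from 0.217 to 0.451, Mrc1 from 1.02 to 1.15, Stab1 from 0.931 to 1.05, Lyve1 from 0.863 to 1.04, Folr2 from 0.786 to 0.969, Fcna from 1.05 to 1.26, Cd163 from 1.02 to 1.36 and Msr1 from 0.776 to 0.948. The state-weighted count could not be given with each library clustered by itself, nor the count of highest levels under the marker-chosen class or the minimum of 10 UMIs. Where the alternative's construction does not show it, the cause was not tested. Depth limits Timd4 and Cd163 most, at 42 to 323 macrophage UMIs a library, and no interval holds variation between mice.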

Other observations

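The gene patterns most like those of the members over 40 pairs of state or class and library were read beside them as a description, since the points share libraries and depth. Lyve1 ran most closely with Cbr2, a carbonyl reductase (correlation 0.89), and then with Folr2 and Fcna. Folr2 ran with the chemokine gene Ccl7 (0.89), Egr1 and Cltc, Fcna with Folr2 (0.87), Ccl7 and Nupr1, and Cd163 with Folr2 (0.83), Gas6 and Lyve1, so 3 of these 4 genes had another of them among their closest. Marco ran with Gm33115 (0.88), Cd5l and Gm49144, of which Cd5l was also the gene seen beside it within the Bmp2-Cbr2 state. Timd4 ran with Sept3 (0.83), Ppp1r14a and Wdfy4, the last a gene of cross-presenting dendritic cells.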
